A study of Mus musculus with 6 samples.

Results

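Ptgds and 9 genes used as markers of meningeal fibroblasts were followed through long RNA sequencing of whole mouse brain. The 10 genes (Ptgds, Dcn, Col1a1, Col1a2, Igf2, Igfbp2, Slc6a13, Slc13a4, Slc22a6 and Lum) were chosen by symbol from the 55450 annotated genes, with the counts of these same libraries already known. Their levels, differences between genotypes and correlations are therefore given as a description, and a p-value beside them is no independent support. The question was whether Ptgds follows the other meningeal genes from library to library. The libraries came from 3 wild-type (WT) brains and 3 brains of animals lacking TRMT1L (KO), a relative of the tRNA methyltransferase TRMT1. The labels speak of biological triplicates and name no allele, strain, sex, age or dissection, so that the amount of meninges left on each brain is not known. The p-values set the difference between the groups against the spread between libraries within them, and cover these 6 libraries only.

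The meninges are the membranes that wrap the brain. Their fibroblasts lay down the collagens and proteoglycans of the pia and arachnoid, secrete IGF2 and its binding proteins into the cerebrospinal fluid, and carry transporters that move organic anions, sulfate and neurotransmitters across the border. Ptgds encodes lipocalin-type prostaglandin D synthase, which turns prostaglandin H2 into prostaglandin D2 and is one of the abundant proteins of the cerebrospinal fluid; besides the leptomeninges, it is made by the choroid plexus and by oligodendrocytes. In RNA from a whole tissue, fewer cells of a type and less RNA per cell cannot be told apart.

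Counts in genes ranged from 31201119 to 36145961 per library, and 21237 genes had enough counts to be tested, all 10 genes described here among them. Trmt1l had 1279, 1034 and 1158 counts in replicates 1 to 3 of WT, against 93, 101 and 106 in those of KO, on the side each label implies. No pair of libraries of a group agreed within sampling noise (chi-square per degree of freedom over genes of at least 4.08). The neuronal markers Snap25, Syt1, Rbfox3, Tubb3, Slc17a7 and Gad1 summed to between 3959 and 4214 CPM (the count of a gene relative to the scaled total of its library) in every library, so that defining markers of the labelled tissue were present. Their log2 fold changes of KO over WT ran from -0.09 for Snap25, the most abundant, to 0.08 for Slc17a7. Among transcription factors that mark meningeal cells, Foxc1 stood between 6.27 and 10.1 CPM and Tbx18 between 2.44 and 4.43 CPM.

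Sequence upstream of the start sites is shown for the genes that bear most on the question: Ptgds, the 2 genes that also stood higher in each KO library (Slc13a4 and Igfbp2), and Col1a2, a matrix gene whose level did not separate the genotypes. Of the 10 genes, 7 had an entry in the RefSeq promoter table (GRCm38.p6), and Dcn, Col1a1 and Lum had none. Each line gives the 250 bases before the first listed start, 5′ to 3′ on the strand of the gene, with matches to a motif on either strand in capitals. The motifs searched were the TATA box TATAAA, the CCAAT box CCAAT, the GC box GGGCGG, the E-box CAGCTG and the forkhead motif GTAAACA. The windows lie at chr2:25469750-25469999 (minus strand) for Ptgds, chr6:35308127-35308376 (minus strand) for Slc13a4, chr1:72824230-72824479 (plus strand) for Igfbp2 and chr6:4505368-4505617 (plus strand) for Col1a2.
Ptgds: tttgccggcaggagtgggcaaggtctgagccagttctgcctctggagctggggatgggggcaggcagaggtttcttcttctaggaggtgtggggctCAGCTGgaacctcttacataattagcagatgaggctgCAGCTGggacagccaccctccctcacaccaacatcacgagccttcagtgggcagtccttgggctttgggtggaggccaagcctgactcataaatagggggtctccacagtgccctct
Slc13a4: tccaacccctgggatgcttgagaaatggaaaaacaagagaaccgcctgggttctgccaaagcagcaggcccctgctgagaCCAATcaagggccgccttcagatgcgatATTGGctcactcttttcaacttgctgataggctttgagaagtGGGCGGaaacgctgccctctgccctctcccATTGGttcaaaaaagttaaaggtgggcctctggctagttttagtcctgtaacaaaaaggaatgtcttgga
Igfbp2: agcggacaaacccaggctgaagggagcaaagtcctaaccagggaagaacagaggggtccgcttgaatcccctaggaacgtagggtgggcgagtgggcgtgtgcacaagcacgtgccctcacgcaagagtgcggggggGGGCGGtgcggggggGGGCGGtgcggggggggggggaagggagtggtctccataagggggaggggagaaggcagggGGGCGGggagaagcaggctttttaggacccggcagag
Col1a2: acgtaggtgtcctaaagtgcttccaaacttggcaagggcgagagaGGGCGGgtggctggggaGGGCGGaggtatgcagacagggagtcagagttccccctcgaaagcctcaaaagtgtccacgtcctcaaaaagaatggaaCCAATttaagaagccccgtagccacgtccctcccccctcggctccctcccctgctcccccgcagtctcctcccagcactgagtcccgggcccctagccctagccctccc

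Of the 4 windows, that of Ptgds alone held CAGCTG, while Slc13a4 and Col1a2 shared the CCAAT box and the GC box. Other forms of the E-box were not searched, so that the other windows may hold an E-box. Ptgds had 2 matches to the E-box CAGCTG, at positions -154 to -149 and -117 to -112 from the start, a motif found in 13.0% of all 32851 windows of the table. Slc13a4 had 3 matches to the CCAAT box and 1 to the GC box. Igfbp2 had 3 matches to the GC box. Col1a2 had 2 matches to the GC box and 1 to the CCAAT box. Over all windows, 33.8% held a CCAAT box, 32.7% a GC box, 12.4% the TATA box and 3.17% the forkhead motif. The last 2 motifs were in none of the 4 windows. These are matches of letters only.

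Ptgds (ENSMUSG00000015090.13, chromosome 2 from 25466709 to 25470046, minus strand) stood higher in each KO brain. It measured 305, 371 and 347 CPM in replicates 1 to 3 of WT, against 439, 405 and 442 CPM in those of KO. Each KO library was above each WT library, and the lowest value of all was that of WT library 1. That library was the lowest for 6 of the 10 genes: Ptgds, Igf2, Igfbp2, Slc6a13, Slc13a4 and Slc22a6. These are the 6 with a log2 fold change above 0. KO library 3 was the highest for 5 of the 10. The means were 341 ± 33.4 CPM for WT and 429 ± 20.5 CPM for KO (SD, n = 3 each), a KO level 1.26 times that of WT. On the log2 scale KO exceeded WT by 0.33 (SE 0.0652), and edgeR's quasi-likelihood test gave an adjusted p of 0.550 over all genes tested. The DESeq2 Wald test on the same counts gave an adjusted p of 0.00117, and edgeR run without a filter on low counts gave 7.56e-10, so that whether Ptgds passed the threshold of 0.05 depended on the test and on the filter. Without WT library 1 the log2 fold change was 0.26.

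**Figure D1:**
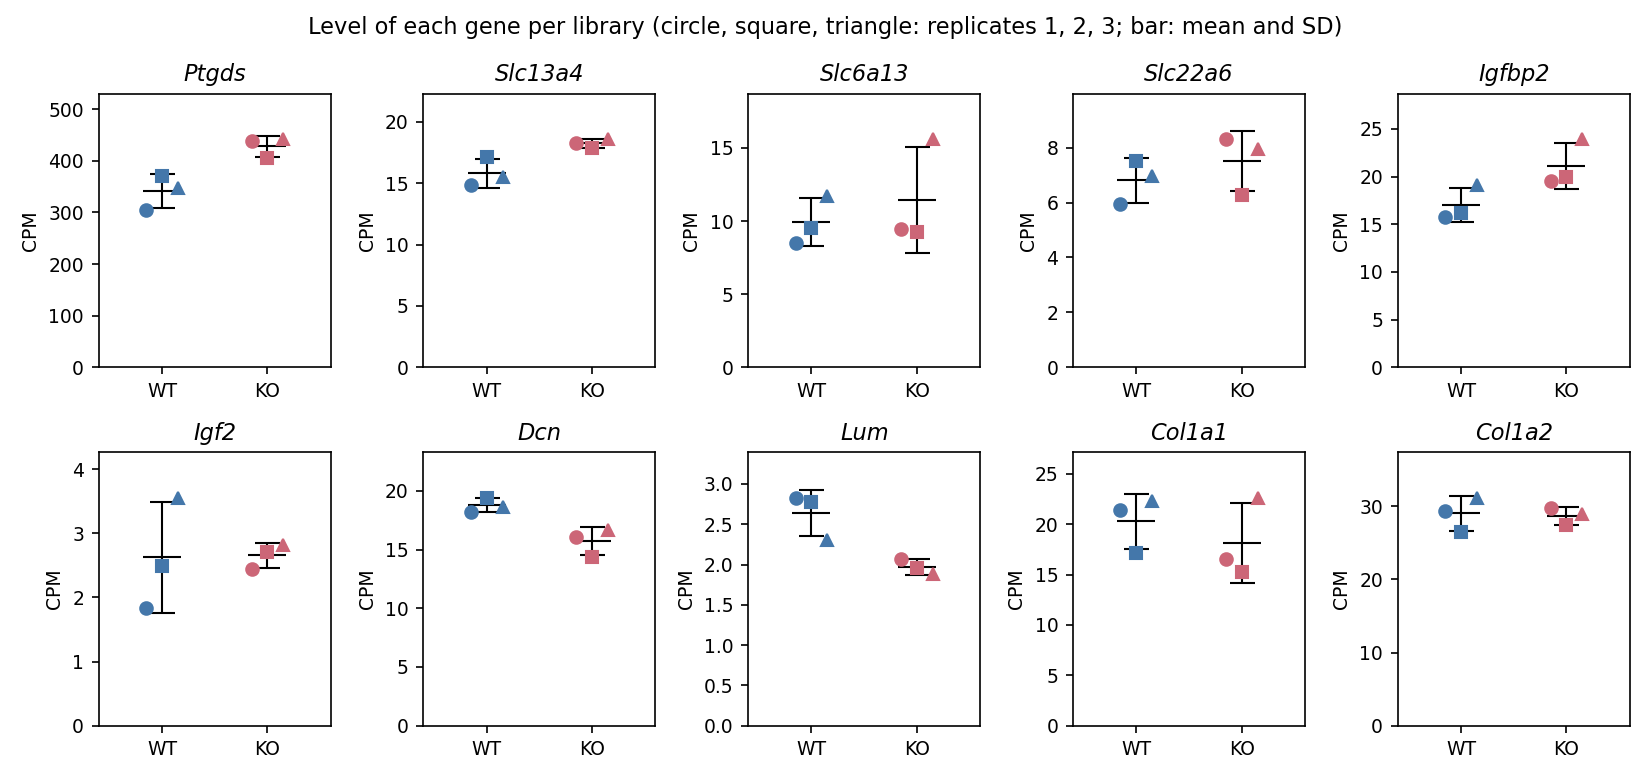
Level of each of the 10 genes in CPM (vertical axes, each from 0) in the 3 WT and 3 KO libraries; symbols are replicates and black bars the mean and SD. Ptgds, Slc13a4 and Igfbp2 lie higher in all 3 KO libraries, Dcn and Lum lower, and the other 5 genes overlap between the groups.

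The transporter genes were divided. Slc13a4 (ENSMUSG00000029843.4, chromosome 6 from 35267957 to 35308131, minus strand) encodes a sulfate transporter. It measured 14.8, 17.1 and 15.5 CPM in WT, against 18.3, 17.9 and 18.6 CPM in KO. Like Ptgds, it was higher in each KO library than in any WT library, by 0.21 on the log2 scale (SE 0.0744; edgeR adjusted p = 0.579).

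Slc6a13 (ENSMUSG00000030108.14, chromosome 6 from 121300227 to 121337733, plus strand), which encodes the GABA transporter GAT2, behaved otherwise. It measured 8.49, 9.54 and 11.7 CPM in WT and 9.44, 9.24 and 15.6 CPM in KO. KO library 3 stood above the rest, while KO libraries 1 and 2 lay inside the WT range. The log2 fold change was 0.21 (SE 0.188; edgeR adjusted p = 0.807) and rested on that library, since without it the value was -0.083, while it was 0.11 without WT library 1 and 0.35 without WT library 3.

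Slc22a6 (ENSMUSG00000024650.5, chromosome 19 from 8618039 to 8628299, plus strand) encodes the organic anion transporter OAT1. It measured 5.94, 7.53 and 6.96 CPM in WT and 8.32, 6.27 and 7.94 CPM in KO. The groups overlapped, KO library 2 being lower than 2 of the WT libraries, and the log2 fold change was 0.14 (SE 0.132; edgeR adjusted p = 0.809). It was 0.05 and 0.06 without WT library 1 or KO library 1, and 0.26 and 0.22 without KO library 2 or WT library 2.

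Of the IGF genes, the binding protein stood higher in KO and the ligand did not. Igfbp2 (ENSMUSG00000039323.18, chromosome 1 from 72824503 to 72852474, plus strand) encodes a secreted protein that binds IGF1 and IGF2. It measured 15.8, 16.2 and 19.1 CPM in WT and 19.5, 19.9 and 23.9 CPM in KO. The groups did not overlap, although WT library 3 lay close to KO library 1. The means were 17.0 ± 1.81 CPM and 21.1 ± 2.45 CPM (SD, n = 3 each), and the log2 fold change was 0.31 (SE 0.0978; edgeR adjusted p = 0.576).

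Igf2 (ENSMUSG00000048583.16, chromosome 7 from 142650766 to 142666816, minus strand), the growth factor itself, had only 67, 78 and 117 counts in WT and 85, 91 and 102 in KO. Of its annotated exon length, 62.8% is shared with the exons of Gm49394, a protein-coding gene on the same strand. Reads in that stretch count for neither gene, so these counts cover part of the Igf2 transcript, and Gm49394 itself had 1 count in WT library 1 and 0 in the other 5 libraries. The KO values lay within the WT range, 0.02 apart on the log2 scale (SE 0.211; edgeR adjusted p = 0.987). Left-out libraries moved it to between -0.19, without WT library 1, and 0.30, without WT library 3, so its direction was not determined.

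The matrix genes stood lower in KO or did not separate the genotypes. Dcn (ENSMUSG00000019929.16, chromosome 10 from 97479609 to 97518143, plus strand) encodes decorin, a small leucine-rich proteoglycan that binds collagen fibrils. It measured 18.2, 19.4 and 18.7 CPM in WT and 16.1, 14.4 and 16.7 CPM in KO. Each KO library was below each WT library, the opposite of Ptgds, with means of 18.8 ± 0.610 CPM and 15.7 ± 1.19 CPM (SD, n = 3 each). The log2 fold change was -0.26 (SE 0.0757; edgeR adjusted p = 0.576).

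Lum (ENSMUSG00000036446.5, chromosome 10 from 97565128 to 97572703, plus strand) encodes lumican, a proteoglycan of the same family, and starts 46984 bases beyond the end of Dcn. It measured 2.83, 2.78 and 2.31 CPM in WT and 2.07, 1.96 and 1.88 CPM in KO, from 66 to 103 counts per library. All 3 KO libraries were again below the WT libraries. Its log2 fold change, -0.42 (SE 0.152; edgeR adjusted p = 0.579), was the largest in size among the 10 genes, at the lowest summed counts of them.

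The fibrillar collagen genes gave no separation. Col1a1 (ENSMUSG00000001506.10, chromosome 11 from 94936224 to 94953042, plus strand), the α1 chain of type I collagen, measured 21.4, 17.2 and 22.3 CPM in WT and 16.6, 15.2 and 22.6 CPM in KO. KO library 3 was the highest of the 6 and KO library 2 the lowest. The log2 fold change was -0.16 (SE 0.138; edgeR adjusted p = 0.800). Single libraries moved it from -0.05, without KO library 2, to -0.35, without KO library 3.

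Col1a2 (ENSMUSG00000029661.16, chromosome 6 from 4504814 to 4541544, plus strand), the α2 chain of the same triple helix, measured 29.4, 26.5 and 31.2 CPM in WT and 29.7, 27.4 and 28.9 CPM in KO. All KO values lay within the WT range. The log2 fold change was -0.02 (SE 0.0700; edgeR adjusted p = 0.968). Its SE was smaller than that of Col1a1, and its sign changed without WT library 3 (0.037) or KO library 2 (0.013).

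**Figure D2:**
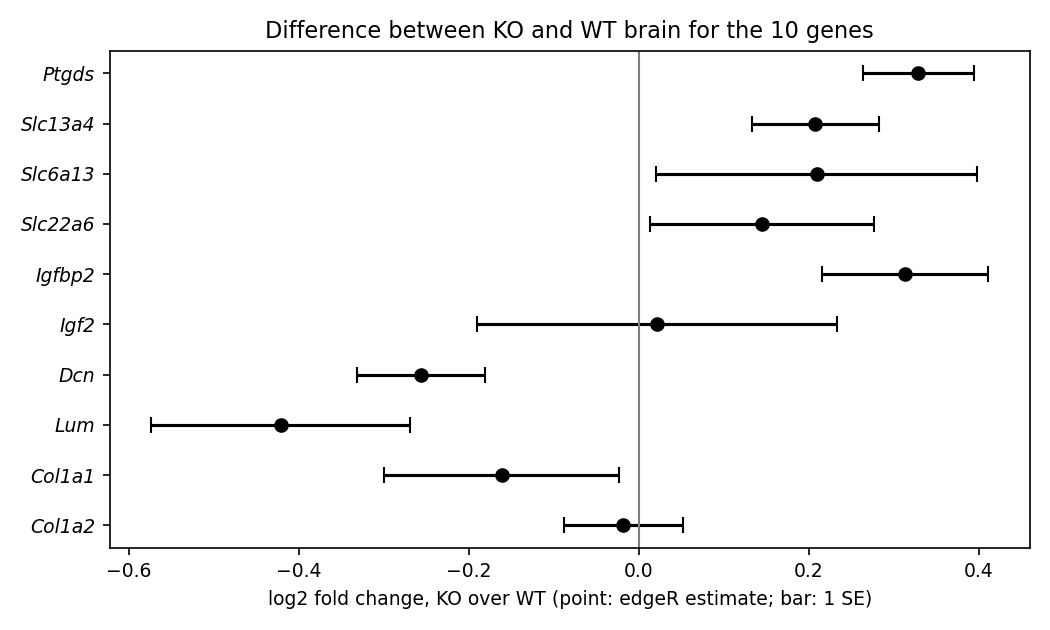
Log2 fold change of KO over WT (horizontal axis; points are edgeR estimates and bars 1 SE) for the 10 genes. Ptgds (0.33) and Igfbp2 (0.31) lie farthest to the right, and Dcn (-0.26) and Lum (-0.42) farthest to the left.

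Read against all genes, 0 of the 10 passed an adjusted p of 0.05 in edgeR's test, where 0.00942% of the genes tested did. Without adjustment, 3 had a p under 0.05 with KO higher (Ptgds, Igfbp2 and Slc13a4; 4.54% of all genes) and 2 with KO lower (Dcn and Lum; 3.38%). The same 3 and 2 genes were those whose groups did not overlap, which was so for 7.46% of all genes with KO higher and 6.97% with KO lower. DESeq2, which gave an adjusted p to 6 of the 10 (not to Igf2, Lum, Slc6a13 and Slc22a6), called 1, Ptgds, beside 0.281% of the 8885 genes to which it gave one. limma-voom called 0 of the 10 and 0.00942% of all genes. Without a filter on low counts edgeR called 2 of the 10 (Ptgds and Igfbp2) and 0.8% of all genes. The median log2 fold change was 0.08 over the 10 genes and 0.00013 over all genes tested. Since the genes were chosen with these values known, nothing is read from the shares.

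Per kilobase of annotated exon, Ptgds had by far the highest level of the 10, with 207 ± 20.3 CPM per kb for WT and 259.9 ± 12.4 for KO (SD, n = 3 each). Igfbp2 followed with 9.21 ± 0.978 CPM per kb in WT. Slc13a4 (3.49 ± 0.263), Slc6a13 (3.41 ± 0.563), Dcn (3.21 ± 0.105) and Col1a1 (3.09 ± 0.417 CPM per kb) came next and did not differ beyond their spread. Col1a2 stood at 2.34 ± 0.190, Slc22a6 at 1.71 ± 0.203 and Lum at 1.08 ± 0.117 CPM per kb in WT. In KO the levels of Slc13a4 (4.03 ± 0.0821) and Dcn (2.69 ± 0.204 CPM per kb) lay apart. The lengths join all annotated exons, which understates genes with long rare transcripts, and Igf2 was left out of the order because part of its reads is not counted.

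Ptgds was next compared with each gene over the 6 libraries, on log2 CPM. The correlations are descriptions over 6 points that share sequencing depth, dissection and the makeup of each brain. Slc13a4 followed Ptgds most closely, with Pearson's r of 0.98 and Spearman's rho of 1, so that the 6 libraries had the same order in both genes. After subtraction of the group means r was still 0.91, and without the 2 libraries farthest from the median it was 0.99. Of the 21236 other genes tested, 7 had a higher r with Ptgds. The share with a higher r was 3.26% for Igfbp2, 4.54% for Slc22a6, 17.8% for Slc6a13 and 25.1% for Igf2. It was 63.7% for Col1a2, 76.5% for Col1a1, 90.6% for Dcn and 98.5% for Lum.

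Slc22a6 (r = 0.74, rho = 0.77) and Igfbp2 (r = 0.78, rho = 0.89) came next, but differed in where the likeness lay. For Slc22a6 the value rose to 0.89 with the group means subtracted, so that it also moved with Ptgds inside the groups. For Igfbp2 it fell to 0.34, so that its likeness to Ptgds lay mostly in the step between WT and KO. Slc6a13 (r = 0.47, rho = 0.49) and Igf2 (r = 0.35, rho = 0.26) were looser. Without the 2 libraries farthest from the median of each gene, r was 0.94 for Slc22a6, 0.41 for Igfbp2, 0.83 for Slc6a13 and 0.35 for Igf2. The value of Igfbp2 was thus lower without KO library 3 and WT library 1. Such values cover fewer libraries over a narrower range, so they do not show on which libraries an r rests.

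Every matrix gene had a negative r with Ptgds. It was -0.83 for Lum (rho = -0.89), -0.60 for Dcn (rho = -0.54), -0.36 for Col1a1 (rho = -0.03) and -0.19 for Col1a2 (rho = -0.20). Dcn turned to 0.73 once the group means were subtracted: inside each genotype a library with more Ptgds tended to have more Dcn, while between genotypes the genes went opposite ways. The corresponding value was -0.22 for Lum, -0.07 for Col1a1 and -0.20 for Col1a2. Without the 2 farthest libraries r was -0.84 for Lum, -0.88 for Dcn, -0.82 for Col1a1 and -0.15 for Col1a2.

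**Figure D3:**
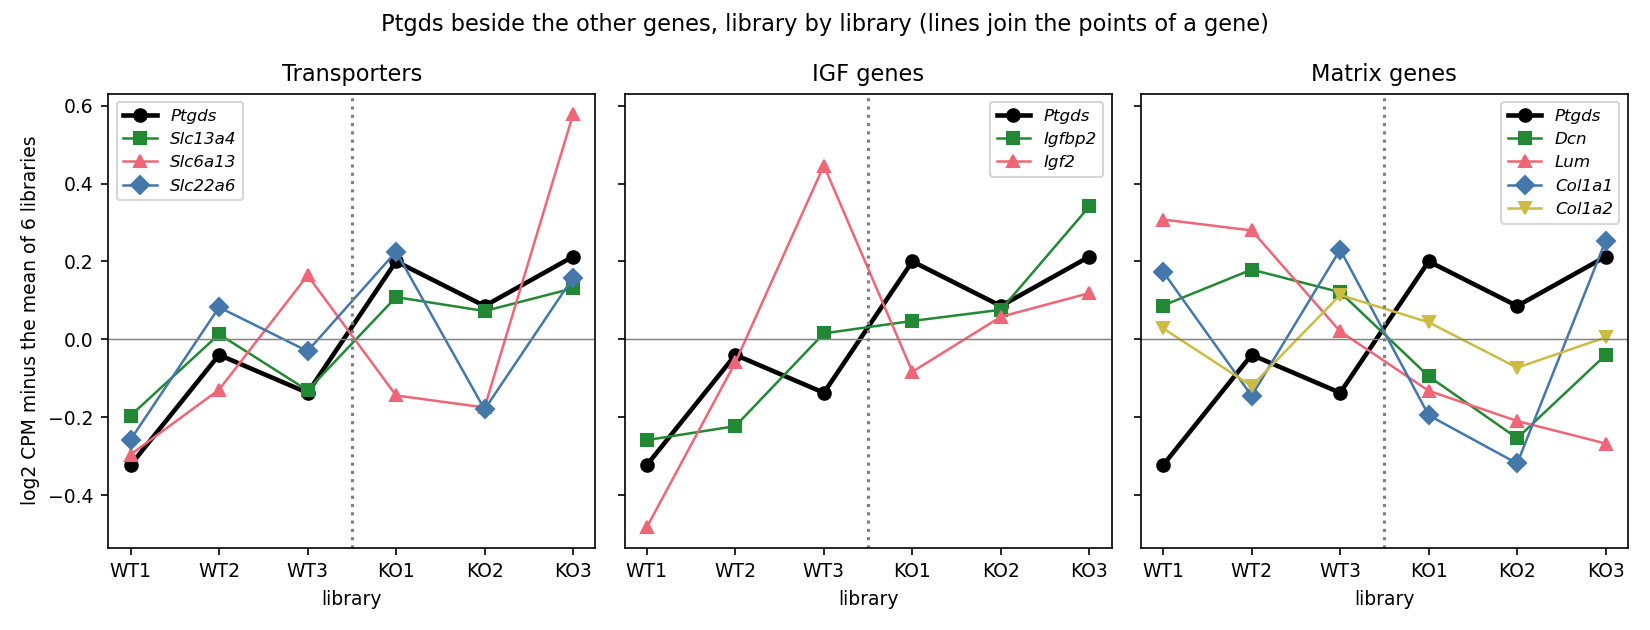
Log2 CPM of each gene minus its mean over 6 libraries (vertical axis) in each WT and KO library (horizontal axis), with Ptgds in black in every panel; lines only join the points of a gene. Slc13a4 orders the 6 libraries as Ptgds does, whereas Dcn and Lum lie on the other side of 0 in KO.

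Taken as 1 profile, the mean of the other 9 genes gave r = 0.31 and rho = 0.31 with Ptgds, and r = 0.39 without KO library 3 and WT library 3, the 2 farthest from its median. With the group means subtracted it was 0.60. Single libraries moved it both ways: it was -0.073 without WT library 1 and -0.037 without KO library 3, but 0.57 without WT library 3 and 0.50 without KO library 2. The median r of the 9 genes was 0.35, with 5 of 9 above 0, where 10620 of the 21236 other genes tested had an r above 0. When the 9 genes were grouped by role, a grouping made after their values were seen, the mean of the 3 transporters gave r = 0.79 (rho = 0.77), that of the 2 IGF genes 0.60 and that of the 4 matrix genes -0.75. With the group means subtracted these were 0.80, 0.49 and -0.0042, and without the 2 farthest libraries of each profile 0.21, 0.74 and -0.91. The transporter value over all 6 libraries was thus kept inside the groups but not without KO library 3 and WT library 1.

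The 9 genes did not follow each other as 1 group either. Col1a1 and Col1a2, whose products form 1 protein, had r = 0.62, and Dcn and Lum 0.78. Lum and Igfbp2 had r = -0.94, and Dcn and Slc13a4 -0.60. Slc6a13 and Igfbp2, which share their maximum in KO library 3, had r = 0.81.

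The ratio of Ptgds to each gene was also taken on the CPM scale. Ptgds by itself already separated the genotypes, as did Dcn and Lum the other way. A ratio without overlap can therefore restate those values, also over a gene that hardly changed, such as Col1a2. No share over all genes stands beside these ratios, and nothing about the roles of the genes is read from them. Ptgds over Dcn was 16.8, 19.1 and 18.6 in WT and 27.3, 28.2 and 26.5 in KO. Ptgds over Lum was 108, 134 and 150.3 in WT and 212, 207 and 235 in KO. Both ratios separated the genotypes widely. Ptgds over Slc13a4 was 20.6, 21.7 and 22.4 in WT and 24.0, 22.7 and 23.8 in KO, so that the groups were also apart but close, with means of 21.6 ± 0.901 and 23.5 ± 0.689 (SD, n = 3 each). Ptgds over Igfbp2 overlapped, with means of 20.2 ± 2.49 and 20.4 ± 2.00 (SD, n = 3 each). Of the other 5 genes, the ratios over Col1a2 (11.8 ± 1.91 and 14.95 ± 0.300) and over the transporter Slc22a6 (50.2 ± 1.09 and 57.7 ± 6.19) did not overlap between the groups, while those over the matrix gene Col1a1 (17.2 ± 3.93 and 24.2 ± 4.04), over Slc6a13 (34.9 ± 4.73 and 39.5 ± 9.79) and over Igf2 (138 ± 35.5 and 162 ± 15.4) did.

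Because Ptgds and several of these genes are also expressed outside the meninges, markers of other cell types were set beside them. All 10 choroid plexus markers had a higher estimate in KO, from 0.01 for the prolactin receptor Prlr to 0.39 for the water channel Aqp1 (SE 0.134; edgeR adjusted p = 0.579), 4 without overlap between the groups, where 7.46% of all genes were so placed. Their summed level ranged from 342 to 397 CPM in WT and from 402 to 479 CPM in KO. The most abundant, Ttr, the transthyretin carrier of thyroid hormone, measured 317, 263 and 300.1 CPM in WT and 384, 372 and 320.3 CPM in KO (log2 fold change 0.29, SE 0.0757; edgeR adjusted p = 0.576, with DESeq2 calling it as it did Ptgds). KO library 3 had the lowest choroid plexus sum of the KO libraries and, by a small margin over KO library 1, the highest Ptgds. The mean profile of these markers had r = 0.51 and rho = 0.37 with Ptgds, r = -0.39 with the group means subtracted and 0.22 without KO libraries 1 and 2. The part of choroid plexus RNA in the Ptgds difference was not tested.

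Of 10 oligodendrocyte markers, 9 had a lower estimate in KO, 2 without overlap, where 6.97% of all genes were so placed. Their sum ranged from 4261 to 4693 CPM in WT and from 3671 to 4388 CPM in KO, with the lowest value in KO library 3, where Ptgds was highest. Cldn11, a tight junction protein of myelin, had the highest estimate (0.05, SE 0.0566; edgeR adjusted p = 0.834) and Mbp the highest level. The profile of these markers had r = -0.44 and rho = -0.60 with Ptgds, but r = 0.22 with the group means subtracted and 0.02 without KO libraries 2 and 3. Their part in the Ptgds difference was not tested.

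Endothelial, mural and astrocyte sums overlapped between the genotypes. They ranged from 268 to 273 CPM in WT and 252 to 285 CPM in KO for endothelial markers, from 249 to 271 and 249 to 264 CPM for mural markers and from 1068 to 1124 and 1049.6 to 1204 CPM for astrocyte markers. Their profiles had r of 0.20, -0.04 and 0.50 with Ptgds (rho of 0.09, -0.03 and 0.60). With the group means subtracted r was 0.53, 0.24 and 0.10, and without the 2 farthest libraries of each profile -0.12, -0.27 and 0.16, so that none of the 3 kept its value. Endothelial estimates ran from -0.17 for Itm2a to 0.11 for Ly6c1, with Flt1 the most abundant, and mural ones from -0.17 for Acta2 to 0.12 for Vtn, with Rgs5 the most abundant. Astrocyte estimates ran from -0.17 for the water channel Aqp4 to 0.45 for the filament gene Gfap, with the glutamate transporter Slc1a3 the most abundant. Of the 5 astrocyte markers, 1 was lower in each KO library (Aqp4), where 6.97% of all genes were so placed. Another 1 was higher in each (Aldh1l1, 0.18, SE 0.0560; edgeR adjusted p = 0.576), where 7.46% of all genes were. KO library 3, which decided the direction of Slc6a13, had the highest Gfap (248 CPM, against 115 to 140.2 CPM in the other 5). Of the 6 libraries it also had the highest Slc1a3 (547 CPM) and Aldh1l1 (61.5 CPM), but the lowest Aqp4 (175 CPM) and Gja1 (172 CPM). The part of astrocytes was not tested. Bone, which also makes type I collagen, was represented by 4 genes. Bglap had 1 to 7 and Ibsp 3 to 8 counts per library, but Sp7 had 81 to 157 and Dmp1 214 to 296, Dmp1 being higher in each KO library than in any WT library (log2 fold change 0.21, SE 0.109; edgeR adjusted p = 0.653). The summed bone level ranged from 10.1 to 11.1 CPM in WT and from 10.7 to 13.0 CPM in KO, and its part in the collagen values was not tested. Of the keratin genes of skin, Krt5 had 0 to 5 and Krt14 0 to 2 counts, and Krt10 had 72 to 81, lower in each KO library than in any WT library when scaled to CPM (-0.13, SE 0.144; edgeR adjusted p = 0.850). Of the muscle myosin Myh4, WT library 1 had 115 counts and the other libraries 11 to 28, the lower estimate of the list (-1.50, SE 0.651; edgeR adjusted p = 0.622), and Acta1 had the higher (-0.10).

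**Figure D4:**
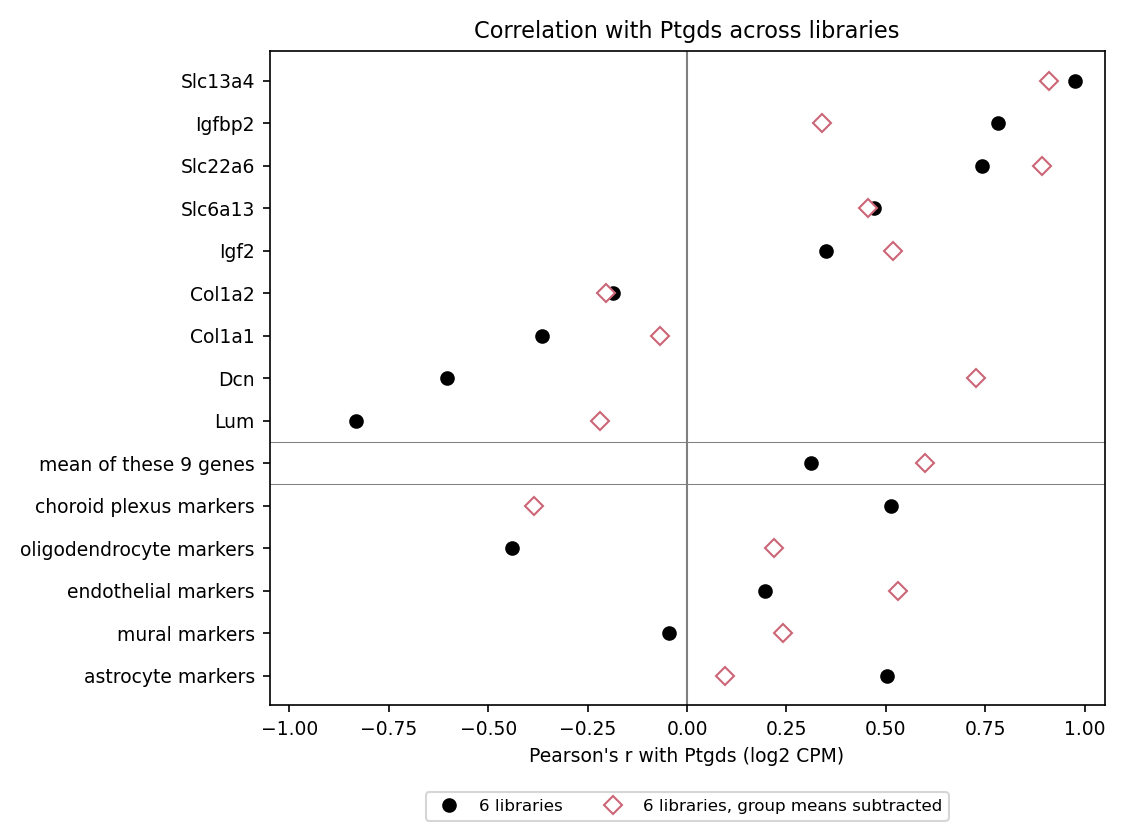
Pearson's r with Ptgds over 6 libraries (horizontal axis; black circles from log2 CPM, open diamonds after subtraction of the group means) for the 9 genes, their mean profile and the mean profiles of 5 marker lists. Slc13a4 stays above 0.9 in both, Dcn changes from -0.60 to 0.73 and choroid plexus markers from 0.51 to -0.39.

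Further genes of the meningeal matrix, the IGF system, transport, transcription and prostaglandin metabolism were listed for comparison. Of the 60 of 62 listed genes that were tested (all but Twist1 and Ptgdr2), 0 passed an adjusted p of 0.05 in edgeR's test, and 0 of the 16 to which DESeq2 gave an adjusted p. Without adjustment, 7 had a p under 0.05 with KO higher and 1 with KO lower, beside 4.54% and 3.38% of all genes, against which the counts of each list also stand. The median log2 fold change of the 60 genes was 0.07, with 41 estimates above 0. Over all genes tested the median was 0.00013, beside which the counts of estimates above or below 0 in each list stand.

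In the 12 collagens and collagen processing genes, 2 had an unadjusted p under 0.05 with KO higher and 0 with KO lower. Serpinh1, the collagen chaperone HSP47, had the highest estimate, from 14.6, 12.6 and 15.5 CPM in WT and 13.6, 22.0 and 23.3 CPM in KO (log2 fold change 0.46, SE 0.164; edgeR adjusted p = 0.579). KO library 1 lay within the WT range. Lox, which crosslinks collagen, had the lowest (-0.18, SE 0.332; edgeR adjusted p = 0.916), and Col6a1, a chain of type VI collagen, was the most abundant with 58.0 ± 6.49 CPM for WT and 63.9 ± 3.71 CPM for KO (SD, n = 3 each).

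In the 12 small proteoglycans and matrix glycoproteins, 3 had an unadjusted p under 0.05 with KO higher and 0 with KO lower. Fbln1, fibulin 1 of elastic and basement membrane matrix, had the highest estimate, from 8.57, 8.68 and 8.87 CPM in WT and 11.4, 9.92 and 12.04 CPM in KO (0.35, SE 0.0959; edgeR adjusted p = 0.576). Fn1, fibronectin, was the most abundant, with 103, 109 and 112 CPM in WT and 113, 126 and 133 CPM in KO (0.20, SE 0.0613; edgeR adjusted p = 0.576). Both were higher in each KO library than in any WT library, unlike Dcn and Lum. Ogn (osteoglycin) had the lowest estimate (-0.06, SE 0.120; edgeR adjusted p = 0.935). The other small leucine-rich proteoglycans of the list, Prelp (-0.03), Bgn (0.02), Fmod (0.07), Aspn (0.14) and Omd (0.19), lay on both sides of 0 with overlapping groups, and were named after their values were seen. The mean profile of this list had r = 0.72 and rho = 0.77 with Ptgds, r = -0.01 with the group means subtracted and 0.40 without WT libraries 1 and 2.

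All 9 tested IGF system genes had estimates above 0, 1 of them with an unadjusted p under 0.05. The estimates ran from 0.02 for the imprinted RNA H19 (SE 0.478, with 4 to 20 counts per library) to 0.23 for the binding protein Igfbp6 (SE 0.121; edgeR adjusted p = 0.655). Igfbp5, the most abundant, had 224 ± 0.806 CPM for WT and 240.1 ± 21.8 CPM for KO (SD, n = 3 each), its KO libraries lying on both sides of WT.

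Of 6 further transporters of the leptomeninges, 1 had an unadjusted p under 0.05 with KO higher, Slc6a12, the betaine and GABA transporter BGT1 (0.40, SE 0.172; edgeR adjusted p = 0.622). Slc22a2, an organic cation transporter, had the lowest estimate (-0.11, SE 0.250; edgeR adjusted p = 0.944). Slc7a11, the cystine and glutamate exchanger, was the most abundant, with 74.2, 85.9 and 93.0 CPM in WT and 76.9, 68.7 and 118 CPM in KO. KO library 3 was thus the highest for Slc7a11 as for Slc6a13, Igfbp2, Foxc1 and Col1a1.

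Of 9 tested transcription factors and retinoid genes, 0 had an unadjusted p under 0.05. The estimates ran from -0.33 for Osr1 (SE 0.208; edgeR adjusted p = 0.719) to 0.37 for Foxc2 (SE 0.220; edgeR adjusted p = 0.706), with the retinol dehydrogenase Rdh10 the most abundant at 11.6 ± 0.615 CPM for WT and 11.6 ± 0.713 CPM for KO (SD, n = 3 each).

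In the prostaglandin pathway, 12 of 13 genes were tested, and 1 had an unadjusted p under 0.05, with KO lower. This was Hpgd, which inactivates prostaglandins by oxidation, with 5.22, 4.18 and 6.29 CPM in WT and 4.14, 3.80 and 3.90 CPM in KO (-0.41, SE 0.150; edgeR adjusted p = 0.581). Upstream of Ptgds, the cyclooxygenases Ptgs1 (0.01, SE 0.0945) and Ptgs2 (0.22, SE 0.152) had overlapping groups. The second prostaglandin D synthase, Hpgds, was lower in each KO library, with 7.72, 8.87 and 8.20 CPM in WT and 7.45, 6.51 and 7.498 CPM in KO (-0.21, SE 0.104; edgeR adjusted p = 0.651). These 3 genes were named after their values were seen. The prostaglandin D receptor Ptgdr had the highest estimate (0.27, SE 0.260; edgeR adjusted p = 0.823) at only 19 to 33 counts per library, and Ptges3 was the most abundant, with 100.1 ± 7.35 CPM for WT and 94.1 ± 5.14 CPM for KO (SD, n = 3 each).

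The genes most like Ptgds in the whole table, the 10 genes themselves apart and among 10639 with a mean of at least 10 CPM, were Cuedc2 (r = 0.99), Map1s, Nbl1, Gprin1 and Zfpm1 (r between 0.976 and 0.981), each over 6 libraries. None of these 5 is a listed marker. Map1s, a microtubule-associated protein, measured 39.5, 45.1 and 45.3 CPM in WT and 52.1, 47.9 and 52.2 CPM in KO. The r of Slc13a4 lay in the same range, and nothing about shared function or cell type is read from such values over 6 libraries.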

How the data were processed

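Total RNA from whole brain was size-selected to remove small RNA and sequenced after Illumina TruSeq total RNA preparation, per the labels' protocols. cutadapt 1.9.1 and STAR 2.7.0f are named in the submitters' processing notes, and the build is not given in the sources used here. The authors deposited raw read counts per gene, without normalization, in 1 table per library. The identifiers are exactly the 55450 genes of GENCODE M21 (GRCm38), which supplied names, positions and exon lengths. The last count column, with between 94.6% and 94.8% of stranded counts, was used. Reads in several genes of a strand or mapping to several places are not counted.

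Genes were filtered with filterByExpr, scaled with TMM factors and tested by genotype with edgeR 4.0.16's quasi-likelihood test in R 4.3.3, with Benjamini-Hochberg adjustment over 21237 genes. DESeq2 1.42.0 and limma 3.58.1 (voom) were alternatives. SE is the size of the log2 fold change over the square root of F. CPM uses TMM factors, and correlations use log2 CPM with a prior count of 2. The fit was checked on counts with known changes.

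The genes and lists were chosen with earlier results of these data known. Named from each list are its lowest and highest estimate and its most abundant gene, and as most like a profile the 5 genes of highest r with a mean of at least 10 CPM. Counts per library limit the precision of rare genes such as Lum and Igf2. Other choices tried were the unstranded column, other scalings, other filters, a replicate block and each library left out. The result for 1 listed marker gene that this rule would name is not reported here.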

Additional observations from a re-analysis of the deposited data

How the results depend on the processing

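Of the 10 genes, 0 passed in edgeR after scaling by total counts or DESeq2 size factors, on unstranded counts, at a mean count of 50 or more or under the replicate block, in limma-voom, or with any library left out. Without a filter 298 genes passed, among them 2 of the 10 (Ptgds and Igfbp2) and 2 listed genes (Fn1 and Serpinh1). The DESeq2 Wald test gave 25 genes, 1 of the 10 among them (Ptgds), having given an adjusted p to 6 of the 10; the cause was not tested. The adjusted p of Ptgds ranged from 7.56e-10 without a filter to 0.861 over all alternatives, and its log2 fold change from 0.26 to 0.39. The replicate block gave 4 genes, none of them among the 10 or the listed genes. Same-numbered WT and KO libraries had deviations correlated at 0.040, -0.031 and -0.058, and 1 of 6 libraries correlated best with its own number, so the numbers show no pairing.

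With each library left out in turn, from 2 to 5 genes passed (5 without KO library 3), with 0 of the 10 and 0 of the listed genes. The sign turned for Igf2 (from -0.19 to 0.30; -0.013 and -0.024 without WT library 2 and KO library 3), Col1a2 (from -0.078 to 0.037; 0.013 without KO library 2) and Slc6a13 (from -0.083 without KO library 3 to 0.35). The r of Ptgds with the mean of the other 9 genes ranged from -0.073 to 0.57 over left-out libraries, and from 0.28 to 0.60 under the other settings, including 0.48 with the replicate block. The scalings moved the median of all genes by at most 0.010 on the log2 scale.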

Other observations

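The mean profile of the 9 genes other than Ptgds was highest in KO library 3 and WT library 3. Among genes with a mean of at least 10 CPM, those most like it over 6 libraries were Cog5, 2810032G03Rik, Cldn5, Klf5 and Gm49125, with r between 0.96 and 0.99. Cldn5, the tight junction protein of brain endothelium, measured 10.9, 13.5 and 17.5 CPM in replicates 1 to 3 of WT, against 13.3, 8.76 and 21.7 CPM in those of KO. Its range over the libraries was wide, but the log2 fold change between genotypes was 0.07 (SE 0.260; edgeR adjusted p = 0.967). On the log2 scale Slc6a13 and Igf2 ranged over 0.87 and 0.93 between the highest and lowest library, against 0.34 for the median gene tested and 0.23 for Col1a2.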
